A study of Mus musculus with 14 samples.

Results

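The genes described here set the chloride level of neurons: 4 cation-chloride cotransporters (Slc12a2, Slc12a4, Slc12a5 and Slc12a7), 4 kinases that regulate them (Wnk1, Wnk2, Wnk3 and Stk39) and the chloride channel gene Clcn2. They were chosen by name, with earlier results of these data known, because KCC2 is a reported partner of ASTN2. KCC2 is a potassium-chloride cotransporter and the product of Slc12a5. All 9 genes were found among the 24100 genes of the count table. The mice were Astn2 wild type (WT) or knockout (KO) littermates, aged postnatal day 21, and every animal also carried the Pcp2-L10a-EGFP bacTRAP transgene, which tags ribosomes with a green fluorescent protein under control of the Purkinje cell gene Pcp2. RNA was sequenced from whole cerebellar lysate (input) and from ribosomes pulled down from it with antibodies to the tag (translating ribosome affinity purification, TRAP). There were 4 input WT libraries (1 female, 3 male), 3 input KO (2 female, 1 male), 3 TRAP WT (1 female, 2 male) and 4 TRAP KO (2 female, 2 male).

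Cation-chloride cotransporters move chloride together with potassium or sodium across the plasma membrane. NKCC1, encoded by Slc12a2, loads cells with chloride, whereas KCC2, which is found in neurons of the brain, extrudes it and so keeps GABA and glycine inhibitory. KCC1 (Slc12a4) and KCC4 (Slc12a7) are extruders of wider tissue distribution. WNK kinases act on the kinase SPAK, encoded by Stk39, which phosphorylates the cotransporters, activating NKCC1 and inhibiting the KCCs, and chloride itself inhibits WNK activity. Clcn2 encodes ClC-2, a chloride channel that opens at negative membrane potentials. Purkinje cells, the output neurons of the cerebellar cortex, receive dense GABAergic input, and the libraries measure mRNA levels of these genes, not the proteins, their phosphorylation or chloride itself.

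Library totals ran from 18799609 to 54229183 counts. Astn2 fell from a level of 94.4 ± 6.90 CPM (counts-per-million, SD, n = 4) in input WT to 0.885 ± 0.127 (n = 3) in input KO, and from 130 ± 14.8 (n = 3) in TRAP WT to 1.52 ± 0.447 (n = 4) in TRAP KO, so the libraries match their labels. All 8 Purkinje cell markers examined were higher in TRAP than in input, by 1.57 to 4.99 on the log2 scale in WT, and all 8 granule cell and all 8 oligodendrocyte markers were lower. In WT, 7 of 8 astroglial, 6 of 6 endothelial and 5 of 6 inhibitory interneuron markers were lower too, and of 6 choroid plexus markers 1 was higher and 1 lower. In KO, 7 of 8 astroglial, 3 of 6 endothelial and 5 of 6 inhibitory interneuron markers were lower, and of the choroid plexus markers 1 was higher and 5 lower. Among choroid plexus markers Clic6 was at 12.7 CPM on average in input WT and 110 CPM in TRAP WT. The exceptions among astroglial and interneuron markers were Pvalb (log2 difference 4.10 in WT) and Aldoc (2.77), both of which were higher and which Purkinje cells also express. The third TRAP WT library stood apart. Its log2 CPM correlated with the other TRAP libraries at a mean r of 0.941, against 0.970 to 0.982 for the rest, over 10160 genes. Results that rest on it are therefore given with and without it. In bulk RNA, fewer cells of a type and less RNA per cell cannot be told apart.

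Slc12a5, at chr2:164960846-164999731 on the plus strand of GRCm38 (mm10), has a pair of annotated transcription starts, and KCC2 isoforms differ in their first exon. The counts are given per gene, not per transcript, so output from either start cannot be told apart. Whether transcripts from both starts were counted is not given in the sources used here. The 250 bases upstream of each start, from RefSeq's GRCm38.p6 annotation and read 5′ to 3′ along the plus strand, are shown so that the 2 windows can be compared. Capitals mark matches to a GC box (GGGCGG) and to an E-box (CACGTG), each searched on both strands. A lone GC box match, on the minus strand (CCGCCC in the line shown), and a lone E-box match lie in the downstream window, chr2:164967738-164967987, which is 67.2% G or C. The upstream window, chr2:164960596-164960845, is 61.2% G or C and these letters are not in it. Of 32851 annotated windows of the same length, 32.7% hold a GC box match and 6.02% an E-box match.
Slc12a5 upstream start: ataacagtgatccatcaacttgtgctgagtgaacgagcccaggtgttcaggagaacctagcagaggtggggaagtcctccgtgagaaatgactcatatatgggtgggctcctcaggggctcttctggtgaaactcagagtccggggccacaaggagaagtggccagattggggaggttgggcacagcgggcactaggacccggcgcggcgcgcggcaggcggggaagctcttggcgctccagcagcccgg
Slc12a5 downstream start: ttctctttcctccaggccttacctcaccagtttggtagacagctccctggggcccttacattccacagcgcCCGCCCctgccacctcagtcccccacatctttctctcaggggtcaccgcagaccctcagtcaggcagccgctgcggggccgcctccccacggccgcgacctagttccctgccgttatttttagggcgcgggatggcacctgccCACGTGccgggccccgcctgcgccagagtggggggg

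The other members lie at chr8:105943590-105966149 (Slc12a4, minus strand), chr13:73733052-73816754 (Slc12a7, plus), chr18:57878512-57946821 (Slc12a2, plus), chr6:119923969-120038695 (Wnk1, minus), chr13:49036302-49148574 (Wnk2, minus), chrX:151168777-151320194 (Wnk3, plus), chr2:68210445-68472108 (Stk39, minus) and chr16:20702435-20717746 (Clcn2, minus). Exons of Slc12a4, Wnk3 and Clcn2 overlap genes on the opposite strand. Whether counting used strand is not given in the sources used here, so reads of Clcn2 and of Fam131a and Polr2h, of Wnk3 and A230072E10Rik, and of Slc12a4 and Gm16156 may not be fully separable.

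Of the 9 genes, Slc12a5 had the highest level per transcript length in every group. Divided by the length of the longest annotated transcript, its level was 62.7 ± 4.06 CPM per kb (SD, n = 4) in input WT and 59.0 ± 0.524 (n = 3) in input KO. Wnk2 came next in input WT at 24.4 ± 1.10 CPM per kb, ahead of Stk39 at 18.7 ± 1.34 and Slc12a2 at 16.6 ± 0.604, whose libraries overlapped each other. Wnk1 followed at 12.99 ± 0.492 CPM per kb. Slc12a4 (6.35 ± 0.719) and Clcn2 (5.88 ± 0.263) overlapped, Wnk3 lay at 1.95 ± 0.0743, and Slc12a7 was lowest at 0.159 ± 0.0345 CPM per kb. The same order held in input KO. In TRAP, Slc12a2 moved from the fourth place to the fifth, below Wnk1, and its libraries there overlapped those of Clcn2 in both genotypes. The libraries of Clcn2, Slc12a4 and Wnk3 overlapped their neighbours in the TRAP order too, as did those of Wnk2 and Stk39 in TRAP WT, where Stk39 was at 19.3 ± 4.76 CPM per kb (n = 3).

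**Figure D1:**
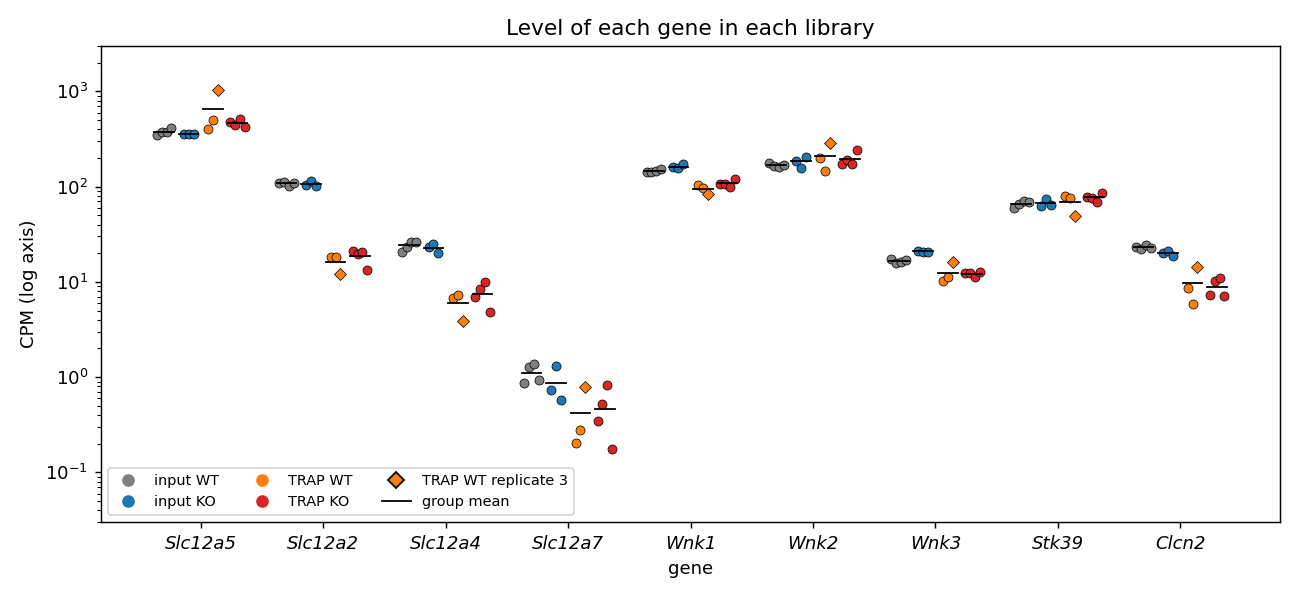
Level of each of the 9 genes in each of the 14 libraries, in CPM on a log axis, with points for libraries and bars for group means. Slc12a2 sits at 101 to 115 CPM in all input libraries and at 11.99 to 21.3 CPM in all TRAP libraries, while the third TRAP WT library (diamond) holds the highest Slc12a5 value.

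The first comparison asked which of these mRNAs were over- or under-represented on Purkinje cell ribosomes relative to whole cerebellum. In WT, Slc12a5 was the 1 gene of the 9 that was higher in TRAP, and Slc12a2, Slc12a4, Slc12a7, Wnk1, Wnk3 and Clcn2 were lower (6 of 9). These directions are relative to composition-adjusted scaling of the libraries (TMM); scaling by library totals moved the median of all genes by -0.82 in WT and -0.73 in KO, and Slc12a5 with it to below 0. Among all 16042 genes tested, 37.0% were higher and 38.5% lower, 75.5% in all, so passing the test was common. The median log2 difference of the 9 was -0.63, against -0.09 over all genes. In KO 0 of 9 were higher and 5 were lower, against 36.3% of all genes higher and 39.6% lower, 75.9% in all, and the medians were -0.77 and -0.11. Tests were edgeR's quasi-likelihood test with Benjamini-Hochberg adjustment over all genes at 0.05, and differences are log2 ± SE.

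Slc12a5 was at 349.7, 376, 377 and 409 CPM in the 4 input WT libraries and at 400.0, 503 and 1039.7 CPM in the 3 TRAP WT libraries. Only the lowest TRAP WT value lay within the input range, and the highest came from the library that stood apart. The log2 difference was 0.78 ± 0.22 (1.72-fold, adjusted p = 0.00573 by edgeR), which dropped to 0.26 ± 0.11 (adjusted p = 0.0478) without the third TRAP WT library and was -0.05 with library totals. In KO, input lay at 359, 354 and 354 CPM and TRAP at 473, 445, 512 and 419 CPM, with every TRAP library above every input library. The KO difference of 0.36 ± 0.23 (95% interval -0.13 to 0.84) did not pass (adjusted p = 0.166). It was 0.36 ± 0.10 with adjusted p = 0.00423 once the third TRAP WT library, which shares the estimate of spread, was left out, and -0.38 with library totals.

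Slc12a2, the chloride loader, had the largest difference between fractions of the 9 genes in both genotypes. It was at 108, 112, 103 and 109.7 CPM in input WT and at 18.3, 18.4 and 11.99 CPM in TRAP WT. In KO it was at 104, 115 and 101 CPM in input and 21.3, 19.8, 20.4 and 13.4 CPM in TRAP. The fractions were apart in both genotypes, by -2.76 ± 0.17 in WT (6.76-fold lower, adjusted p = 5.90e-09) and -2.47 ± 0.15 in KO (5.54-fold lower, adjusted p = 9.81e-09). For comparison, the 8 granule cell markers were lower by -3.03 to -1.69 in WT and the 8 oligodendrocyte markers by -2.61 to -1.04. Summed over their lists, granule cell markers went from 4647 to 4702 CPM in input WT to 780 to 1244 CPM in TRAP WT, and oligodendrocyte markers from 5587 to 7589 CPM to 1049 to 1914 CPM. Choroid plexus is an epithelium known for strong Slc12a2 expression. Its 6 markers summed to 17.1 to 412 CPM in input WT and 22.8 to 1180 CPM in input KO. Slc12a2 was at 101 to 115 CPM in these input libraries. How much of the Slc12a2 signal in input, or of that remaining in TRAP, came from such other cells was not tested.

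Slc12a4, encoding KCC1, was at 20.7 to 26.4 CPM in input WT and 3.87 to 7.22 CPM in TRAP WT, a difference of -2.04 ± 0.25 (adjusted p = 4.62e-06). In KO it went from 19.9 to 25.1 CPM in input to 4.84 to 9.94 CPM in TRAP, and the difference was -1.57 ± 0.23 (adjusted p = 2.81e-05). No TRAP library reached an input library in either genotype. Slc12a7, encoding KCC4, was near the lower limit of measurement, at 0.868 to 1.36 CPM in input WT and 0.204 to 0.783 CPM in TRAP WT, with 3 to 19 counts per TRAP library. Its difference of -1.29 ± 0.52 passed in WT (adjusted p = 0.0352) and was -2.21 ± 0.63 without the third TRAP WT library. The call was lost without the first (-0.99, adjusted p = 0.134) or the second (-1.10, adjusted p = 0.102) TRAP WT library or the second (-1.23) or the third (-1.19) input WT library. The KO value of -0.95 ± 0.49 did not pass (adjusted p = 0.0905) but did without the third input KO (-1.38) or the third TRAP KO library (-1.27), and the KO groups overlapped.

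The kinases did not move as a block. Wnk1, the most widely expressed WNK, was lower in TRAP in both genotypes, by -0.63 ± 0.10 in WT (adjusted p = 8.69e-05) and -0.57 ± 0.10 in KO (adjusted p = 1.85e-04). Its libraries were at 143, 143, 148 and 155 CPM in input WT against 103, 96.5 and 84.3 CPM in TRAP WT, with no overlap. Wnk3, a WNK expressed in brain, was lower by -0.40 ± 0.14 in WT (adjusted p = 0.0168) and -0.77 ± 0.13 in KO (adjusted p = 1.32e-04). The third TRAP WT library had 15.99 CPM of Wnk3, within the input WT range of 15.97 to 17.3 CPM, against 10.3 and 11.3 CPM in the other two. Without it the WT value was -0.65 ± 0.10, and the call was lost without the first input WT (-0.35, adjusted p = 0.0515) or the first TRAP WT library (-0.26, adjusted p = 0.109).

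Wnk2, a WNK of the nervous system, and Stk39 did not pass the test between fractions in either genotype. Wnk2 was at 178, 164, 161 and 169 CPM in input WT and 199, 146 and 285 CPM in TRAP WT, a spread wider than the difference of 0.33 ± 0.19 (95% interval -0.07 to 0.74, adjusted p = 0.123). It passed at 0.50 (adjusted p = 0.00750) without the second TRAP WT library, the lowest of the 3. The KO difference for Wnk2 was 0.09 ± 0.19 (adjusted p = 0.690), with groups overlapping. Stk39 was at 59.4, 66.5, 70.2 and 68.3 CPM in input WT and 80.1, 75.5 and 48.9 CPM in TRAP WT. Its difference was 0.04 ± 0.15 (95% interval -0.28 to 0.37, adjusted p = 0.815) in WT and 0.23 ± 0.15 (adjusted p = 0.177) in KO. Without the third TRAP WT library, which had the lowest Stk39 value of all 14, the WT difference was 0.22 ± 0.11 (adjusted p = 0.0772). Both genes came out lower with library totals (-0.49 and -0.78 in WT), where the median of all genes moved by -0.82.

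Clcn2, the hyperpolarization-activated channel, was at 23.3, 22.1, 24.6 and 22.9 CPM in input WT and 8.71, 5.93 and 14.4 CPM in TRAP WT. In KO it was at 20.1, 20.9 and 18.7 CPM in input and 7.29, 10.3, 10.9 and 7.17 CPM in TRAP, again with no overlap. The difference was -1.24 ± 0.24 in WT (adjusted p = 3.39e-04) and -1.15 ± 0.23 in KO (adjusted p = 4.90e-04), and -1.73 ± 0.20 in WT without the third TRAP WT library. Its antisense neighbour Polr2h, a subunit shared by RNA polymerases, was higher in TRAP by 1.90 ± 0.16 in WT, and Fam131a differed by 0.08 ± 0.14. Of the 9 genes, 5 had WT libraries that did not overlap between fractions, where 72.6% of all genes did not, and 6 had such KO libraries, where 78.0% of all genes did not.

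**Figure D2:**
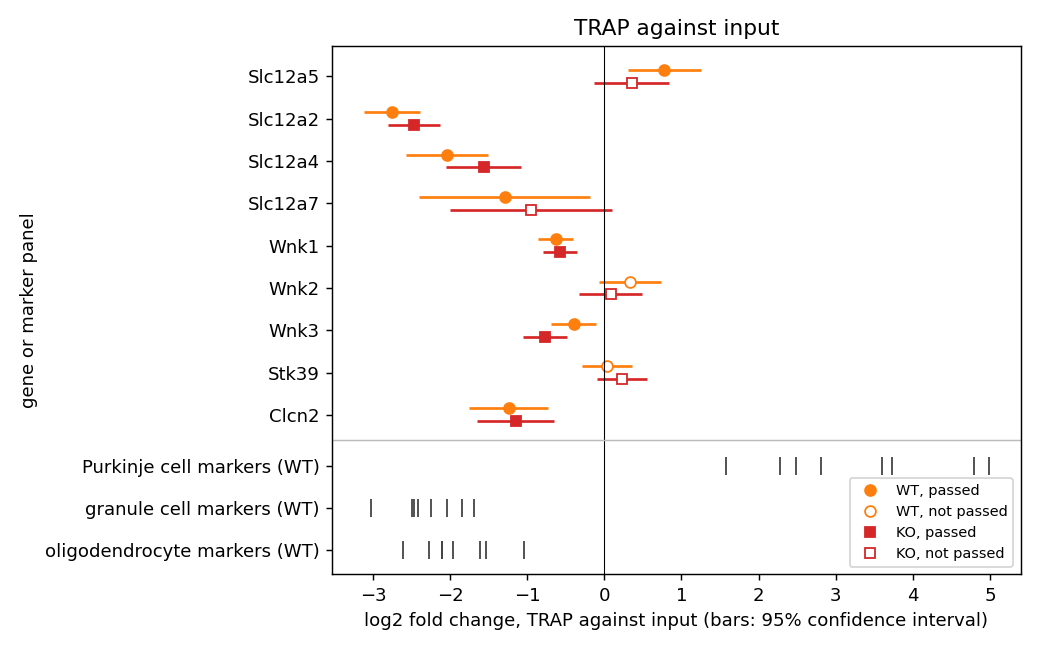
Log2 difference, TRAP against input, of each of the 9 genes in WT and KO with 95% intervals (filled points passed the test), above tick marks for single marker genes of Purkinje, granule and oligodendrocyte cells in WT. Slc12a2 lies at -2.76 in WT and -2.47 in KO, within the range of the granule markers (-3.03 to -1.69). The WT value lies below the lowest oligodendrocyte marker at -2.61. Slc12a5, at 0.78 and 0.36 with this scaling and below 0 with library totals, lies under the lowest Purkinje marker at 1.57.

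The ratio of Slc12a5 to Slc12a2 counts within a library compares the chloride extruder with the loader and does not depend on how libraries are scaled. It was 3.24, 3.35, 3.66 and 3.73 in input WT and 3.46, 3.07 and 3.50 in input KO. In TRAP it was 21.9, 27.4 and 86.7 in WT and 22.2, 22.4, 25.1 and 31.2 in KO. Every TRAP library lay above every input library. The difference in mean log2 ratio was 3.42 in WT (10.7-fold) and 2.90 in KO (7.48-fold), each with p = 0.0286 and the same adjusted p over the 2 comparisons by an exact two-sided permutation test, the smallest p that 35 splits allow. Without the third TRAP WT library the WT difference was 2.81, where 15 splits cannot reach 0.05.

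Between genotypes the ratio differed by -0.06 on the log2 scale in input (exact permutation p = 0.429, adjusted p = 0.429) and by -0.58 in TRAP (exact permutation p = 0.371, adjusted p = 0.429). The input ratio was 3.50 ± 0.239 (SD, n = 4) in WT and 3.34 ± 0.236 (n = 3) in KO. The TRAP ratio was 45.3 ± 35.9 (n = 3) in WT and 25.2 ± 4.19 (n = 4) in KO, and the difference was 0.03 without the third TRAP WT library.

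**Figure D3:**
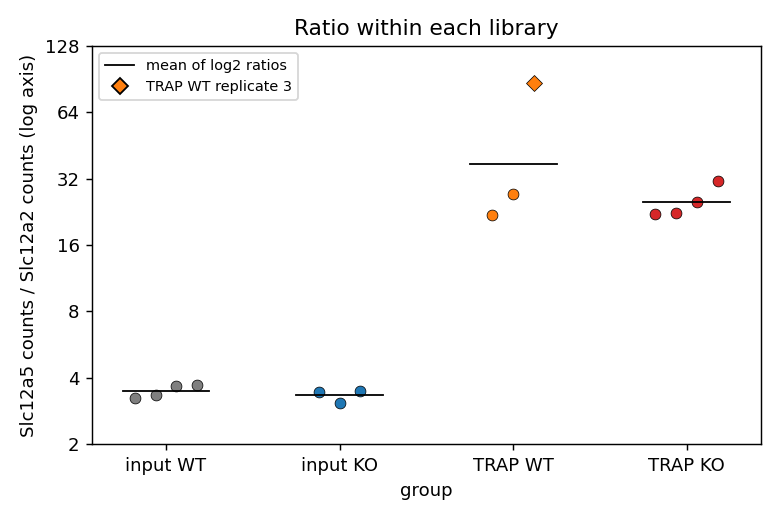
Ratio of Slc12a5 to Slc12a2 counts in each library (log axis) with the mean of log2 ratios per group. Input libraries lie between 3.07 and 3.73 and TRAP libraries between 21.9 and 86.7, the highest being the third TRAP WT library (diamond).

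The second comparison asked whether loss of Astn2 changed the level of these mRNAs. In whole cerebellum 0 of the 9 genes passed edgeR's test, where 0.0188% of the 15997 genes tested did, and DESeq2 gave 0 of 9, where it called 292 of those 15997 genes. Wnk3 and Clcn2, 2 of 9, had an unadjusted p under 0.05, against 13.7% of all genes, and 3 of 9 had libraries that did not overlap between genotypes, against 11.4% of all genes.

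Slc12a5 in input differed by -0.09 ± 0.08 (95% interval -0.27 to 0.08, adjusted p = 0.629), an interval that reaches from 1.20-fold lower to 1.06-fold higher in KO. Its 3 KO libraries, at 354 to 359 CPM, lay inside the WT range of 349.7 to 409 CPM. Slc12a2 differed by -0.08 ± 0.07 (95% interval -0.24 to 0.09), and the remaining cotransporters by -0.12 ± 0.13 (Slc12a4) and -0.48 ± 0.37 (Slc12a7), with overlapping libraries throughout. The signs of all 4 changed without the third input KO library, the lone male of its group.

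Wnk3 was at 17.3, 15.97, 16.3 and 17.1 CPM in input WT and at 21.3, 20.6 and 20.8 CPM in input KO, so every KO library lay above every WT library. The difference was 0.27 ± 0.07 (95% interval 0.12 to 0.42, unadjusted p = 0.00259, adjusted p = 0.189 by edgeR) and failed the correction. Wnk3 lies on the X chromosome, and the fit held a term for sex. Its antisense neighbour A230072E10Rik differed by 0.14 ± 0.18 (adjusted p = 0.768). Clcn2 was lower in every KO library than in every WT library, by -0.29 ± 0.07 (95% interval -0.46 to -0.12, unadjusted p = 0.00385, adjusted p = 0.197 by edgeR), and failed the correction too. Fam131a (0.06 ± 0.08) and Polr2h (-0.02 ± 0.07), which overlap it, did not pass either. Wnk1 was at 143 to 155 CPM in WT and 157 to 172 CPM in KO, with a difference of 0.14 ± 0.06 (adjusted p = 0.368). The 6 endothelial markers summed to 12.3 to 19.2 CPM in input KO and 19.8 to 28.2 CPM in input WT, and their part in these differences was not tested. Wnk2 (0.11 ± 0.09) and Stk39 (0.02 ± 0.09) had overlapping libraries.

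In the TRAP fraction 0 of 9 passed edgeR's test, 0 of 9 at an unadjusted p under 0.05 and 0 of 9 with DESeq2. Of the 14145 genes tested there, 0.00707% passed and 1.50% had an unadjusted p under 0.05. None of the 9 had TRAP libraries that separated the genotypes, where 4.56% of all genes did. Slc12a5 differed by -0.37 ± 0.30 (95% interval -1.05 to 0.31, adjusted p = 1.000 by edgeR), a range from 2.07-fold lower to 1.24-fold higher. Without the third TRAP WT library it differed by 0.04 ± 0.14 (95% interval -0.28 to 0.37). Wnk3, at 10.3 to 15.99 CPM in TRAP WT and 11.3 to 12.6 CPM in TRAP KO, differed by -0.01 ± 0.20, and Clcn2 by -0.10 ± 0.33. The other 6 ran from -0.08 ± 0.25 (Wnk2) to 0.33 ± 0.32 (Slc12a4). The intervals in TRAP were wider than those in input for all 9 genes, so changes of the size seen for Wnk3 and Clcn2 in input were not detectable in TRAP.

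**Figure D4:**
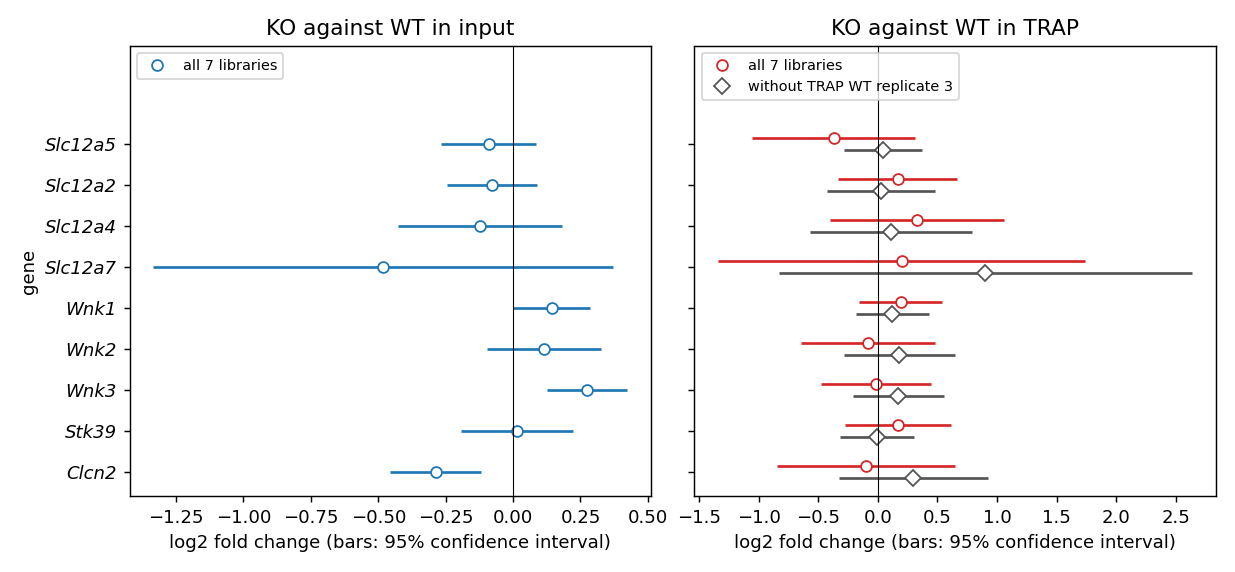
Log2 difference, KO against WT, of each of the 9 genes in input (left) and TRAP (right) with 95% intervals, and in TRAP also without the third TRAP WT library (diamonds). In input only the Wnk3 (0.27) and Clcn2 (-0.29) intervals exclude 0, before adjustment over all genes, and the Slc12a5 estimate in TRAP goes from -0.37 to 0.04 without that library.

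Whether the genotype difference itself depended on the fraction was tested in 1 fit of all 14 libraries, which uses the same libraries as the comparisons above. For this interaction 0 of 9 passed edgeR's test, as did 0.00% of all 16042 genes. An unadjusted p under 0.05 was found for 0 of 9, against 2.68% of all genes, and DESeq2 gave 0 of 9. The Slc12a5 value was -0.42 ± 0.32 (95% interval -1.10 to 0.26), or 0.10 ± 0.15 without the third TRAP WT library, and the Wnk3 value was -0.37 ± 0.19 (unadjusted p = 0.0700, adjusted p = 0.999 by edgeR).

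Beyond the 9, a list of 41 genes covered other SLC12 family members, further parts of the WNK cascade, CLC channels and their partners, other chloride and bicarbonate transporters, and KCC2 partners. Of these, 35 passed the filter on low counts. In WT 8 of 35 were higher in TRAP and 16 lower, against 37.0% and 38.5% of all genes. In KO 7 were higher and 14 lower, against 36.3% and 39.6% of all genes. The median of the 35 was -0.29 in WT and -0.15 in KO, against -0.09 and -0.11 over all genes.

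In the SLC12 family, Slc12a8, an atypical member, was higher in TRAP by 2.96 ± 0.23 in WT (adjusted p = 4.64e-08), from 3.27 CPM to 25.2 CPM, and by 2.86 in KO. Slc12a1, the renal sodium-potassium-chloride cotransporter, was higher by 2.55 in WT and 2.60 in KO at levels below 1 CPM in every library, with the third TRAP WT library at 0, and the WT difference was 2.13 with adjusted p = 0.0602 when same-numbered libraries were paired. The WT call was also lost without the second TRAP WT library (1.73, adjusted p = 0.104) and with library totals (1.74, adjusted p = 0.0533), and the value was 3.26 without the third. Slc12a9, an orphan member, was lower by -1.85 in WT and -1.26 in KO. In the kinase cascade Nedd4l, a ubiquitin ligase, was lower by -2.16 in WT, Klhl3, an adaptor that targets WNK kinases for degradation, by -0.89 (adjusted p = 0.0493), and Sgk1, a kinase that acts on Nedd4l, by -0.43. The Klhl3 call in WT was lost in 11 of 21 alternatives, each of which left out 1 library. Over all fits that left out 1 library, lost or not, the value ran from -1.59 without the third TRAP WT library to -0.52 without the second. Cul3, the ubiquitin ligase scaffold that works with Klhl3, was higher by 0.28 in WT, but lower (-0.54) with library totals.

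Among the channels, Clcn1 was lower in TRAP by -3.04 in WT and -3.01 in KO, and Clcn5, an endosomal chloride-proton exchanger, by -2.40 and -2.69. Hepacam, which encodes the glial partner GlialCAM of ClC-2, was lower by -2.20 in WT and -1.95 in KO. Ostm1, the partner of the lysosomal exchanger ClC-7, was higher by 1.22 and 1.25. Of other chloride routes, the volume-regulated channel subunit Lrrc8e (-3.50), the calcium-activated channel Ano1 (-3.42) and Ttyh2 (-2.65) were lower in WT, and so was the subunit Lrrc8b (-1.58). All 4 were lower in KO too, at -2.26 for Lrrc8e, -1.83 for Ano1, -2.37 for Ttyh2 and -2.23 for Lrrc8b. Lrrc8e and Ano1 rest on 0 to 3 counts per TRAP WT library, and their WT values were -4.91 without the second TRAP WT library (Lrrc8e) and -4.15 without the first (Ano1). Lrrc8d was higher by 0.80 in WT and the bicarbonate transporters Slc4a10 by 0.64 and Slc4a3 by 0.47, but all 3 were below 0 with library totals. Without the third TRAP WT library, Slc4a10 (0.21, adjusted p = 0.189) and Slc4a3 (0.11, adjusted p = 0.321) no longer passed, and Slc4a3 did not pass with paired libraries (0.39, adjusted p = 0.0738). Of KCC2 partners, Ckb, the brain creatine kinase, was higher by 1.64 in WT and 1.84 in KO, and Neto2, an auxiliary subunit of kainate receptors, was lower by -1.66 and -1.80. Between genotypes 0 of the listed genes tested passed edgeR in input (35 genes, 9 at an unadjusted p under 0.05, where 13.7% of all genes were) or in TRAP (33 genes, 0 unadjusted, where 1.50% of all genes were), and DESeq2, which called 292 of all 15997 genes in input, called 1 of the list there, Slc12a9, whose edgeR value was -0.36 with adjusted p = 0.166.

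Over the 14 libraries, the genes whose log2 CPM followed Slc12a5 most closely among 10160 genes were Pcdhb17 (Pearson r = 0.979), Slc39a3 (r = 0.964) and Nsun5 (r = 0.964). The libraries share their fraction, and without the third TRAP WT library the values were 0.963, 0.852 and 0.897. Pcdhb17, a clustered protocadherin, was at 9.31 CPM on average in input WT, 8.96 in input KO, 19.4 in TRAP WT and 13.3 in TRAP KO.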

How the data were processed

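RNA was measured in 14 libraries of mouse cerebellum, 7 of input and 7 of TRAP RNA. The authors deposited whole-number read counts per Entrez gene in 1 table. Per the submitters' processing notes, Salmon 0.8.2 and the mm10 build were used; the annotation, strand setting and rounding are not given in the sources used here. All 14 columns were matched to samples by name, and 24045 of 24100 genes had a symbol. Replicates of a group differed beyond counting noise, so none were merged. Nothing in the labels says which libraries came from 1 animal, so p-values may measure partly technical spread.

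Counts were tested with edgeR 4.0.16 in R 4.3.3 (TMM scaling, filterByExpr, quasi-likelihood, Benjamini-Hochberg at 0.05). TRAP against input and the interaction used all 14 libraries with group means and sex; genotype was tested in the 7 libraries of a fraction with sex. The count ratio was compared by an exact permutation test. CPM uses TMM over the 14 libraries, and CPM per kb the longest transcript. The scripts were tested on simulated data whose spread was set, not fitted to these libraries. There edgeR recovered 89.7% of true 2-fold changes between genotypes in input, 45.8% in TRAP and 6.67% for the interaction. An interaction or a TRAP genotype change of that size could therefore be missed. For TRAP against input it recovered 44.2% in WT and 38.1% in KO. Those runs changed only 199 of 15717 genes in WT and 197 of 15729 in KO. In the real libraries 75.5% and 75.9% of genes passed, so the TRAP against input rates do not carry over to these data. Alternatives were DESeq2 1.42.0, other scalings and filters, no sex term, each library left out and a replicate block.

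Same-numbered WT libraries of both fractions deviated together (r = 0.323, 0.274 and 0.101 over 10160 genes). They also shared sex, which was not removed before correlating, so pairs are not established. The main tests and the permutation test treated libraries as independent, and pairing by number was run as an alternative. Named genes are the 9 members, Astn2, up to 3 passing list genes per direction and subgroup, and the 3 genes most like Slc12a5. The members and lists were chosen with earlier results of these data known. In the list of 41, 6 genes had too few counts to test.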

Additional observations from a re-analysis of the deposited data

Results flagged for a closer look

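Slc12a2 in the fourth TRAP KO library lay far below the other libraries of its group, at 13.4 CPM against 19.8 to 21.3 CPM. With levels taken as log2(CPM+1), its gap to the nearest library was 0.845 of the group's range, above Dixon's 95% critical value for 4 samples. On CPM itself the gap was a smaller share of the range and fell short of that value, so the flag depends on the log scale. Among 20 values checked for the members on the log scale, the Slc12a2 value was the 1 that passed the limit, and chance passes about 1 in 20.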

How the results depend on the processing

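The counts of members past the threshold stayed within 1.5 times of the reported ones under every alternative run, except that TRAP against input in KO gave 8 of 9 with library totals (5 with TMM), and 0 members passed a genotype or interaction test under any of them. For the pathway list, DESeq2 called 1 gene between genotypes in input. With library totals the TRAP against input values turned for Slc12a5 (-0.046 in WT, -0.38 in KO), Wnk2 (-0.49, -0.65), Stk39 (-0.78, -0.50), Lrrc8d (-0.018, -0.035), Slc4a10 (-0.18, -0.24), Slc4a3 (-0.35, -0.34) and, in WT, Cul3 (-0.54), and the TRAP genotype value of Wnk3 turned to 0.039. A mean count of at least 50 turned Stk39 in WT to -0.17 and Wnk2 in KO to -0.10. Stk39 between genotypes in input was -0.012 with no sex term and -0.019 in a fit of all 14 libraries. The log2 ratio of Slc12a5 to Slc12a2 gave 2.97 in WT and 2.78 in KO for TRAP against input with group medians (adjusted p = 0.114 by exact permutation). Apart from the smaller sets of samples, where the designs cannot reach 0.05, the cause was not tested.

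The replicate block joined same-numbered input and TRAP libraries in 1 fit of both genotypes. In WT it changed the call of no member and, among the other named genes, only those of Slc12a1 and Slc4a3. Slc12a5 in WT was 0.70 (adjusted p = 0.0186 by edgeR). KO numbers gave less ground for pairing, although that fit blocked them too. The correlations of same-numbered input and TRAP KO libraries were 0.196, 0.282 and -0.22. The first and the second input KO library correlated best with their own number but the third with the fourth TRAP KO library. The block turned Wnk2 in KO to -0.012 and Wnk1 in the interaction to -0.017. Between genotypes it joined KO and WT libraries by number alone and turned Clcn2 in TRAP to 0.036. Deviations of same-numbered TRAP KO and WT libraries correlated at -0.058, -0.22 and -0.10, so nothing gives ground for that block. Paired log2 ratios were 3.45 in WT and 2.80 in KO (exact p = 0.25, the smallest 3 pairs allow).

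Leaving out each library in turn left the log2 ratio of Slc12a5 to Slc12a2 at 2.81 to 3.80 in WT and 2.80 to 2.96 in KO for TRAP against input, and at -0.96 to 0.030 between genotypes in TRAP. TRAP against input ranged from -0.12 to 0.22 for Stk39 in WT and from -0.016 to 0.16 for Wnk2 in KO. Between genotypes in input the ranges were -0.14 to 0.015 (Slc12a2), -0.39 to 0.21 (Slc12a4), -0.18 to 0.025 (Slc12a5), -1.10 to 0.25 (Slc12a7) and -0.056 to 0.28 (Wnk2), each turning without the third input KO library, and -0.12 to 0.19 for Stk39. In TRAP they were -0.71 to 0.044 (Slc12a5), -0.17 to 0.90 (Slc12a7), -0.30 to 0.18 (Wnk2), -0.17 to 0.17 (Wnk3), -0.0070 to 0.33 (Stk39) and -0.35 to 0.30 (Clcn2). For the interaction they were -0.64 to 0.10 (Slc12a5), -0.089 to 1.28 (Slc12a7), -0.021 to 0.13 (Wnk1), -0.45 to 0.060 (Wnk2), -0.017 to 0.34 (Stk39) and -0.15 to 0.58 (Clcn2). The calls of Klhl3, Sgk1 and Slc12a1 in WT and of Slc4a10, Slc4a3 and Klhl3 in KO were also lost without single libraries. In KO most alternatives lost the call of Slc4a10 (12 of 21, with 1 more reversed in sign) and of Slc4a3 (13 of 21, with 1 more reversed). Low counts limited Slc12a7, Slc12a1, Lrrc8e and Ano1, and the spread of the TRAP WT libraries limited the genotype intervals in TRAP.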
